A study of Mus musculus with 30 samples.

Results

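The genes described are the 10 immune checkpoint ligands and receptors Cd274, Pdcd1lg2, Cd80, Cd86, Pvr, Pdcd1, Ctla4, Lag3, Havcr2 and Tigit, out of 53431 genes in the table. They were taken by name, not by a cutoff on values, though with earlier results of these data known. Each matched exactly 1 row. Gene expression was measured by poly-A RNA-seq in 30 libraries of 8 groups: 3 cultures of CT-26 cells, 3 cultures of Colon 26 cells, and 4 tumors of each model at sizes of 100, 400 and 800 mm3. These sizes are nominal, with exact volumes of 103.33 to 145.86, 400.47 to 464.68 and 810.36 to 938.57 mm3 in CT-26. In Colon 26 the volumes were 102.9 to 124.88, 401.52 to 466.73 and 807.93 to 963.18 mm3. CT-26 and Colon 26 are mouse colon carcinoma lines, and the tumors grew from these cells in female BALB/c mice, inoculated in the right flank. Colon 26 was bought from 2 suppliers, and which of them gave these samples is not given in the sources used here. No label gives an antibody for any sample, so the tumors were taken as untreated, although the protocol text in the labels describes dosing with checkpoint antibodies. Replicates are named here by the letters a to d, and since the labels do not say whether cultures or animals were separate, p-values measure only the spread between these libraries. The study asked how these models, which differ in their response to a PD-1 antibody, differ in gene expression.

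Immune checkpoints are pairs of surface proteins through which a T cell is held back by the cell it contacts. PD-1, the product of Pdcd1, is an inhibitory receptor of activated T cells whose ligands are PD-L1 (Cd274) and PD-L2 (Pdcd1lg2), and PD-L1 is induced by interferon gamma on tumor cells and myeloid cells. CTLA-4 competes with CD28 for CD80 and CD86 on antigen presenting cells and is abundant on regulatory T cells. LAG-3 (Lag3) and TIM-3 (Havcr2) are further inhibitory receptors of T cells, TIM-3 is also carried by macrophages and dendritic cells, and TIGIT is a receptor of T cells and NK cells for the poliovirus receptor, the product of Pvr.

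In mouse build GRCm38, with GENCODE gene models, Cd274 lies at chr19:29367455-29388095 on the plus strand, followed on the same strand by Pdcd1lg2 at chr19:29410919-29471161. Cd80, Cd86 and Tigit share chromosome 16, at chr16:38455561-38496335 (plus), chr16:36603869-36666081 (minus) and chr16:43648867-43664146 (minus). Pdcd1 lies at chr1:94038305-94052553 (minus) and Ctla4 at chr1:60887000-60915832 (plus). Lag3 lies at chr6:124904361-124911705 (minus), Havcr2 at chr11:46454935-46481255 (plus) and Pvr at chr7:19903578-19921160 (minus). Values are of whole genes, exons of all annotated transcripts included. Exons of Cd274 overlap those of an antisense gene, AC119228.1, and as the handling of strand is not given in the sources used here, reads of these genes cannot be told apart. No other member shares exon sequence with a neighboring gene.

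Cd274, Havcr2, Cd80 and Tigit had clear levels in the cultured lines themselves, and Cd274 and Havcr2 were called between the lines, so the 250 bases before their RefSeq start sites (GRCm38.p6) are shown, 5′ to 3′ on the strand of the gene. RefSeq promoters were matched for 7 of the 10 members, the others being Cd86, Lag3 and Pvr. Capitals mark the GC box letters GGGCGG in Cd274 and the AP-1 letters TGANTCA in Havcr2 and Cd80, searched on both strands.

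Cd274 (chr19:29367188-29367437): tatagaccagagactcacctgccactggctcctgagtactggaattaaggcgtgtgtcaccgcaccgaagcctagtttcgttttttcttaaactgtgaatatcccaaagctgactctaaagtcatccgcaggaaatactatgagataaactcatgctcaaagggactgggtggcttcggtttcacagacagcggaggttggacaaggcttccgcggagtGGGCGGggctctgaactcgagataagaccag

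Havcr2 (chr11:46454681-46454930): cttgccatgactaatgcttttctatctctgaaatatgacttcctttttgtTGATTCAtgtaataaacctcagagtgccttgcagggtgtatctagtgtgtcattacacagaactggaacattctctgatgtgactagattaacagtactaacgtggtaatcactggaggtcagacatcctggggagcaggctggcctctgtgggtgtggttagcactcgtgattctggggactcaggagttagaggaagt

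Cd80 (chr16:38458683-38458932): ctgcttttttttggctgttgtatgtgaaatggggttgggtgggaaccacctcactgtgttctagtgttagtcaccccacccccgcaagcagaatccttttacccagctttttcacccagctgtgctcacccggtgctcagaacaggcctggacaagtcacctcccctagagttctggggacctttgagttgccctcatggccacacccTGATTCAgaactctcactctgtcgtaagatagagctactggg

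Tigit (chr16:43664185-43664434): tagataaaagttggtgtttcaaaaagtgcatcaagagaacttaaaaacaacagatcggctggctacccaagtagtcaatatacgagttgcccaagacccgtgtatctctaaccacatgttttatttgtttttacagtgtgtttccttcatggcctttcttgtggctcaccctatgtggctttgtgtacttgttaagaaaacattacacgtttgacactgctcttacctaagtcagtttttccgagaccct

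The AP-1 letters start 200 bases before the start site of Havcr2 and 42 bases before that of Cd80, and 6.7% of 32851 promoter windows of the same length hold them. The GC box of Cd274 starts 31 bases before the start site, another stands 77 bases before that of Pdcd1, and 32.7% of windows hold one. The letters of the interferon elements GAS (TTCNNNGAA, 7.0% of windows) and ISRE core (GAAANNGAAA, 3.0%), and of the TATA box (TATAAA, 12.4%), were found in none of the 7 windows. The Cd80 window lies inside the GENCODE gene, since RefSeq starts the gene further downstream. These matches describe the letters only.

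Total gene counts lay between 21384697 and 39722554 in the 30 libraries, and the CT-26 cultures (at most 27856353) were shallower than the Colon 26 cultures (at least 36042918). The library codes of the 2 sets of cultures and of the tumors of each model run in separate series, so any effect of handling cannot be told apart from the model or from growth as a tumor. The T cell markers Cd3d, Cd3e and Cd3g and the CD8 markers Cd8a and Cd8b1 had at most 3 counts in every culture. Although the lines are carcinomas, 2 of 5 epithelial markers (Epcam and Cdh1) had at most 3 counts in every CT-26 culture and 4 of 5 (with Krt18 and Krt19) in every Colon 26 culture. The mean of the 5 ranged from -1.65 to -1.17 log2 CPM in CT-26 cultures and from -3.46 to -3.36 in Colon 26 cultures. Contractile muscle genes (Ckm, Acta1 and Myh4), which mark muscle of the flank, averaged from -2.74 to 9.31 log2 CPM over the 24 tumors and were lower in Colon 26 than in CT-26 tumors of 800 mm3 (3 of 3 genes). The part of muscle in the results was not tested.

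Levels are given as FPKM, counts scaled by gene length and by library depth, which allows different genes to be set side by side. Differences were tested with edgeR's quasi-likelihood test on the counts, and a gene was called where its adjusted p was at most 0.1 and its log2 fold change at least 1 in size, which are also the thresholds the study used. CPM are counts scaled to normalized library size only.

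In culture, both lines carried Pvr, Cd80 and Tigit at high levels. Pvr was the highest member in both, followed by Cd80, Tigit and, far lower, Cd274 or Havcr2, and none of these neighbors overlapped in range. Pdcd1lg2 had 0 counts in all 6 cultures, and Pdcd1, Ctla4 and Cd86 had 0 to 3. Lag3 was at 3 to 10 counts in CT-26 cultures and at 4 to 17 in Colon 26 cultures, which is 0.0503 to 0.2155 FPKM over the 6.

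Havcr2 differed most between the cultured lines. It stood at 5.71, 6.28 and 5.81 FPKM in the CT-26 cultures a, b and c and at 0.286, 0.392 and 0.333 FPKM in the Colon 26 cultures. These are 332 to 476 and 28 to 42 counts, and the difference of 17.7-fold was larger than the spread of either group (log2 fold change, Colon 26 over CT-26, -4.15 ± 0.11 SE, adjusted p = 1.1e-14, edgeR). Beside it, Cd68, a lysosomal protein abundant in macrophages, was at 1272 to 1788 counts in CT-26 cultures and 132 to 175 in Colon 26 cultures, and the leukocyte gene Cd53 at 93 to 98 and 2 to 4. The defining macrophage marker Adgre1, which encodes F4/80, had 2 to 3 counts in CT-26 cultures and 0 in Colon 26 cultures, Csf1r had 7 to 15 and 0 to 3, C1qa 7 to 16 and 1, and Mrc1 8 to 10 and 18 to 25. The mean over these 5 macrophage markers ranged from -0.08 to 0.18 log2 CPM in CT-26 cultures and from -1.98 to -1.69 in Colon 26 cultures, and its part in the Havcr2 difference was not tested.

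Cd274 was at 4.21, 4.23 and 4.29 FPKM in CT-26 cultures and at 1.56, 1.62 and 1.64 FPKM in Colon 26 cultures. The groups did not overlap, and Cd274 was 2.67-fold lower in Colon 26 (log2 fold change -1.42 ± 0.07 SE, adjusted p = 1.4e-11, edgeR). With Havcr2, 2 of the 5 members that passed the filter on low counts were called, both lower in Colon 26, where 22.9% of the 14334 genes tested were called in this comparison. Of the interferon response genes set beside Cd274, only Cxcl10 was called in culture, higher in Colon 26, and Ifng, the gene of interferon gamma, had 0 counts in all 6 cultures.

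Pvr was at 102.5, 104.5 and 102.4 FPKM in CT-26 cultures and at 53.0, 54.5 and 55.4 FPKM in Colon 26 cultures, and was 1.92-fold lower in Colon 26 (log2 fold change -0.94 ± 0.03 SE, adjusted p = 7.6e-14, edgeR). Cd80 went the other way, at 30.3, 30.1 and 29.5 FPKM in CT-26 and 45.3, 46.5 and 48.1 FPKM in Colon 26 (0.63 ± 0.03 SE, adjusted p = 5.7e-11). Both differences were beyond the replicate spread but below the minimum fold. By the adjusted p alone 4 of 5 members passed, beside 82.6% of all genes tested. Tigit was at 15.3, 18.2 and 16.7 FPKM in CT-26 and at 16.8, 15.8 and 15.7 FPKM in Colon 26 cultures, overlapping ranges with a log2 difference of -0.08 ± 0.07 SE (adjusted p = 0.31, edgeR).

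**Figure D1:**
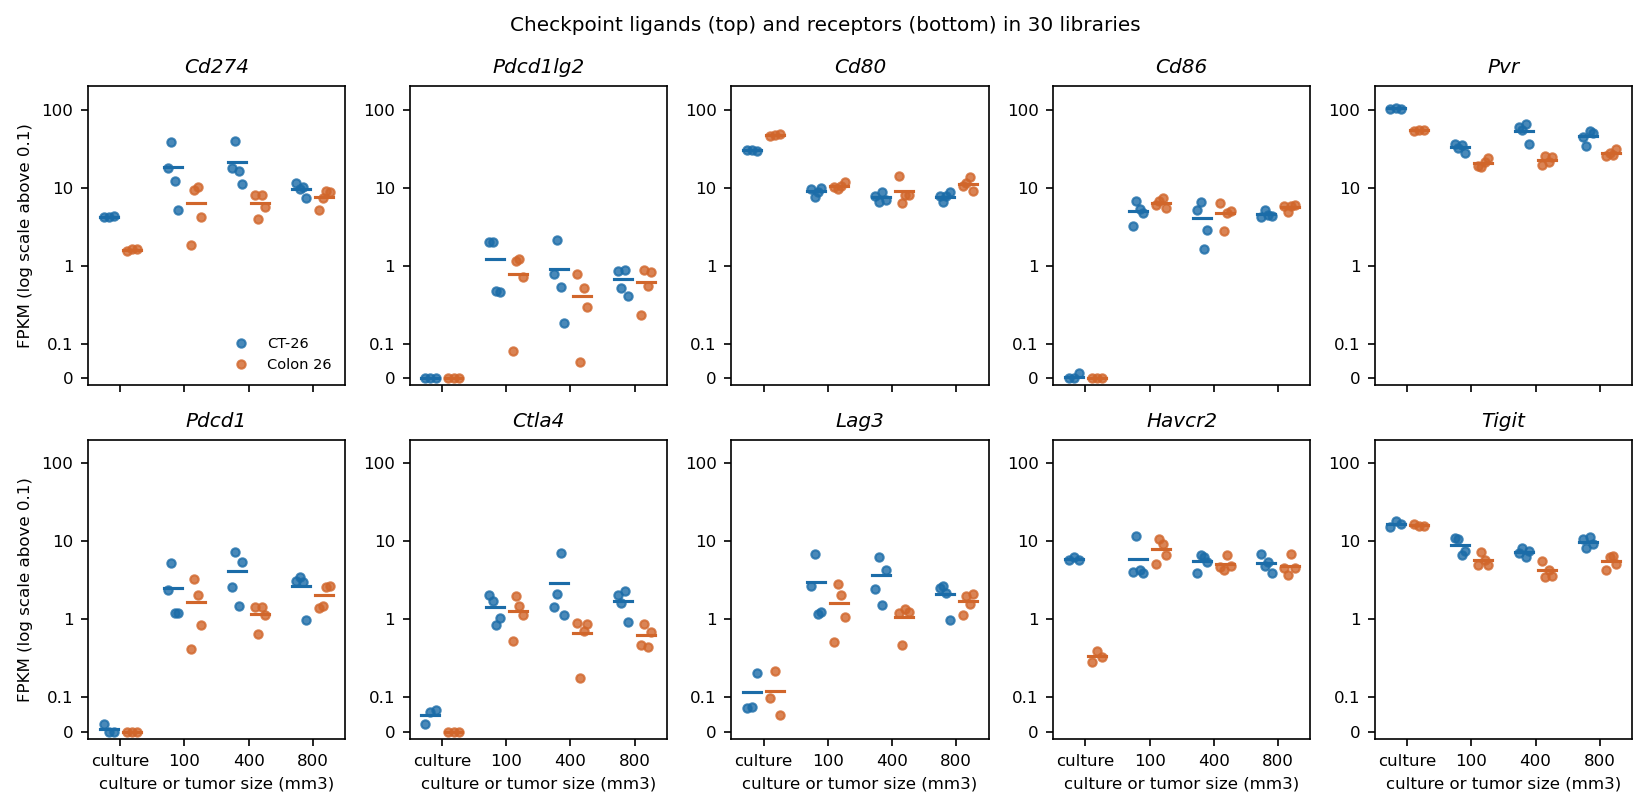
FPKM of each member (vertical axis, linear below 0.1 and logarithmic above) in the 30 libraries, by culture or tumor size in mm3 (horizontal axis), with CT-26 in blue and Colon 26 in orange. Points are libraries and bars are group means (n = 3 cultures or 4 tumors). Pvr, Cd80 and Tigit are highest in culture, Havcr2 is near 6 FPKM in CT-26 cultures and below 0.4 in Colon 26 cultures, and Pdcd1, Ctla4, Pdcd1lg2 and Cd86 lie at or near 0 in culture.

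Growth as a tumor was next compared with culture, at 100 mm3. Cd86, Pdcd1, Ctla4, Pdcd1lg2, Lag3 and Cd274 rose in both models, Cd80 and Pvr fell in both, and in Colon 26 Havcr2 was called higher and Tigit lower. In CT-26, 8 of 10 members were called (6 higher and 2 lower in tumors), where 32.2% of all genes tested were called. In Colon 26 all 10 were called (7 higher and 3 lower), where 26.9% were. Tumors hold leukocytes and stroma beside tumor cells, and in bulk samples fewer cells of a type and less RNA per cell cannot be told apart.

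Cd86, the costimulatory ligand of antigen presenting cells, was at 3.23, 6.77, 5.35 and 4.77 FPKM in CT-26 tumors of 100 mm3 against 1 count in all CT-26 cultures together. The ratio of counts was 946 (95% Clopper-Pearson interval 169 to 37370, counting error only). In Colon 26 tumors it was at 5.99, 6.77, 7.31 and 5.46 FPKM, at least 637-fold higher than the floor of 3 counts over the cultures, where none was read. Macrophage markers rose with it, from a mean of 0.05 ± 0.13 to 7.36 ± 0.26 log2 CPM in CT-26 and from -1.85 ± 0.15 to 7.58 ± 0.11 in Colon 26 (SD, n = 3 and 4).

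Pdcd1 was at 2.40, 5.25, 1.20 and 1.21 FPKM in CT-26 tumors of 100 mm3 and at 0.412, 3.27, 2.08 and 0.834 FPKM in Colon 26 tumors. Its ratio of counts to the CT-26 cultures, which held 1 count, was 366 (65.4 to 14470), and in Colon 26 it was at least 132-fold higher in tumors. Ctla4 was at 2.04, 1.74, 0.853 and 1.04 FPKM in CT-26 tumors, a ratio of 39.95 (16.9 to 124) over 5 counts in culture, and at 0.531, 1.99, 1.49 and 1.14 FPKM in Colon 26 tumors, at least 99.7-fold higher. For both receptors the lowest tumor was above every culture of its model, and tumors of 1 group differed among themselves by several fold.

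Lag3 rose from its few counts to 2.68, 6.94, 1.16 and 1.23 FPKM in CT-26 tumors (25.7-fold, log2 fold change 4.69 ± 0.89 SE, adjusted p = 0.0016, edgeR) and to 0.513, 2.83, 2.06 and 1.08 FPKM in Colon 26 tumors (13.5-fold, 3.76 ± 0.68 SE, adjusted p = 0.00088). Without CT-26 tumor b the log2 fold change was 3.82, without CT-26 culture c 5.35, and without Colon 26 culture b 4.46. Pdcd1lg2 was at 2.01, 1.99, 0.477 and 0.464 FPKM in CT-26 tumors and at 0.0805, 1.14, 1.22 and 0.721 FPKM in Colon 26 tumors. Against 0 counts in culture, that is at least 49.5-fold and at least 51.2-fold higher.

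Cd274 rose to 17.7, 38.0, 12.0 and 5.23 FPKM in CT-26 tumors of 100 mm3, 4.35-fold over culture (log2 fold change 2.12 ± 0.60 SE, adjusted p = 0.013, edgeR). In Colon 26 it rose to 1.86, 9.24, 10.2 and 4.21 FPKM, 4.05-fold (2.02 ± 0.52 SE, adjusted p = 0.0063). Tumor d of CT-26 and tumor a of Colon 26 lay close to their cultures. The interaction, -0.15 ± 0.86 SE (adjusted p = 0.92), was too wide to tell whether the rises differed. Without CT-26 tumor b the rise in CT-26 was 1.44 on the log2 scale.

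Havcr2 behaved differently in the 2 models. In CT-26 tumors of 100 mm3 it stood at 4.05, 11.8, 4.27 and 3.94 FPKM, 3 of 4 below the cultures (log2 fold change 0.03 ± 0.40 SE, adjusted p = 0.95, edgeR). In Colon 26 tumors it rose to 5.18, 10.7, 9.11 and 6.73 FPKM, 23.9-fold over culture (4.58 ± 0.30 SE, adjusted p = 1.1e-06). The difference between these changes was itself called (interaction 4.50 ± 0.57 SE, adjusted p = 2.6e-05).

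Pvr and Cd80, the highest members in culture, fell. Pvr went to 36.1, 31.8, 34.7 and 28.1 FPKM in CT-26 tumors (3.15-fold lower, adjusted p = 2.4e-06, edgeR) and to 18.7, 18.1, 21.3 and 23.8 FPKM in Colon 26 tumors (2.61-fold lower, adjusted p = 7.3e-07). Cd80 went to 9.58, 7.64, 8.73 and 9.87 FPKM in CT-26 (3.21-fold lower, adjusted p = 9.9e-07) and to 10.2, 9.72, 10.6 and 11.7 FPKM in Colon 26 (4.09-fold lower, adjusted p = 6e-09). No tumor reached the level of any culture. For Cd80 the gene length behind the FPKM was a median of 2227 bases in cultures and 2393 bases in tumors. The tests used counts and made no adjustment for this length.

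Tigit, although a receptor of lymphocytes, was lower in tumors than in culture. It stood at 11.04, 10.7, 6.70 and 7.41 FPKM in CT-26 tumors (log2 fold change -0.89 ± 0.21 SE, adjusted p = 0.0045, edgeR), just under the minimum fold, and without tumor a or tumor b it fell by 1.02 or 1.01 and was called. In Colon 26 tumors it was at 4.90, 7.23, 5.76 and 5.03 FPKM, 2.75-fold lower (-1.46 ± 0.13 SE, adjusted p = 9.9e-06). Over the same step T cell markers rose, 7 of 7 called in CT-26 and 6 of 7 in Colon 26. Of these 7 markers, 5 had at most 3 counts in each CT-26 culture and 6 in each Colon 26 culture. Lck, a kinase of T cells, was the exception in both, at 63 to 99 and 238 to 277 counts. Their mean ranged from -2.91 to -2.46 log2 CPM in CT-26 cultures and from -2.94 to -2.78 in Colon 26 cultures, where Tigit was at its highest.

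In the interaction of model with culture or tumor of 100 mm3, 2 of 10 members were called, Havcr2 and Ctla4, where 17.6% of all genes tested were called. By the adjusted p alone 4 passed, beside 51.0% of genes, the others being Cd80 (-0.40 ± 0.09 SE, adjusted p = 0.0033, edgeR) and Tigit (-0.62 ± 0.26 SE, adjusted p = 0.074). The Ctla4 term (3.95 ± 1.73 SE, adjusted p = 0.086) rests on 5 counts in CT-26 cultures and 0 in Colon 26 cultures. It was not called without any 1 of the 3 Colon 26 cultures, CT-26 culture a or c, CT-26 tumor d or Colon 26 tumor c (adjusted p 0.1 to 0.22). With limma on log2(FPKM + 1) its sign changed, to -0.0248 (adjusted p = 0.95), where cultures held at most 0.0647 FPKM of Ctla4.

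**Figure D2:**
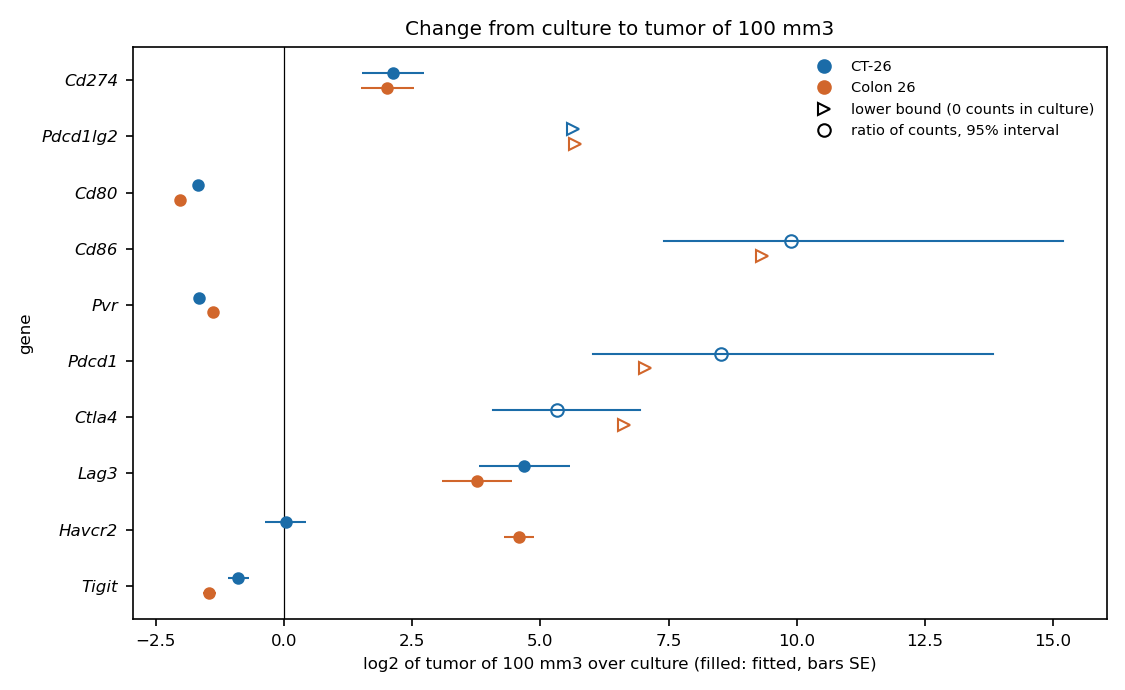
Log2 ratio of tumors of 100 mm3 over cultures (horizontal axis) for each member, CT-26 in blue and Colon 26 in orange. Filled points are fitted log2 fold changes with their SE, open circles are ratios of counts with 95% intervals where a culture group held few counts, and open triangles are lower bounds where it held 0. Pvr, Cd80 and Tigit lie left of 0 in both models, and Havcr2 lies at 0.03 in CT-26 and at 4.58 in Colon 26.

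Between the models, tumors of each size were then compared, with log2 fold changes given as Colon 26 over CT-26. The called differences all had the lower level in Colon 26. At 100 mm3 Cd274 alone was called (1 of 10 members, where 13.2% of genes were called). At 400 mm3 Pdcd1, Cd274, Ctla4, Lag3 and Pvr were (5 of 10, where 14.3% were), and at 800 mm3 Ctla4 alone (1 of 10, where 14.1% were). By the adjusted p alone 4, 6 and 6 of 10 members passed, beside 56.5%, 52.2% and 59.4% of all genes. The median log2 fold change of the members was -0.67, -1.28 and -0.39, and that of all genes tested was within 0.03 of 0.

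Among the ligands, Cd274 was at 17.8, 39.0, 16.2 and 11.2 FPKM in CT-26 tumors of 400 mm3 and at 8.08, 3.93, 7.97 and 5.66 FPKM in Colon 26 tumors. Every CT-26 tumor was above every Colon 26 tumor, a 3.45-fold difference (log2 fold change -1.79 ± 0.40 SE, adjusted p = 0.006, edgeR). At 100 mm3, where the values are given above, the ranges overlapped and the difference was -1.57 ± 0.66 SE (adjusted p = 0.078). That call was lost without CT-26 tumor a (-1.55, adjusted p = 0.13), CT-26 tumor b (-0.93, adjusted p = 0.23), Colon 26 tumor a (-1.25, adjusted p = 0.14) or Colon 26 tumor d (-1.41, adjusted p = 0.17). At 800 mm3 CT-26 tumors were at 11.6, 9.60, 10.3 and 7.43 FPKM and Colon 26 tumors at 5.15, 7.33, 9.04 and 8.88 FPKM, a difference of -0.42 ± 0.17 SE that did not reach the minimum fold (adjusted p = 0.061).

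Interferon response genes moved beside Cd274. Of the 9 listed, 5, 4 and 3 were lower in Colon 26 tumors of 100, 400 and 800 mm3 and none was higher, where 13.2%, 14.3% and 14.1% of all genes tested were called. The mean of the list ranged from 5.36 to 7.44, 5.64 to 6.97 and 5.03 to 6.10 log2 CPM in CT-26 tumors and from 3.30 to 5.69, 4.26 to 5.31 and 4.15 to 5.41 in Colon 26 tumors. Its part in the level of Cd274 was not tested.

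Pvr was lower in Colon 26 tumors at every size. At 400 mm3 it was at 59.6, 53.9, 65.4 and 36.2 FPKM in CT-26 and at 19.7, 25.3, 21.5 and 24.7 FPKM in Colon 26 (2.48-fold, log2 fold change -1.31 ± 0.20 SE, adjusted p = 0.00085, edgeR). At 800 mm3 it was at 44.8, 34.5, 53.0 and 49.5 FPKM and at 25.7, 27.5, 26.2 and 31.6 FPKM (-0.78 ± 0.13 SE, adjusted p = 0.00054), and at 100 mm3 the difference was -0.73 ± 0.11 SE (adjusted p = 0.00074). The ranges did not overlap at any size.

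Cd80 and Cd86, the ligands of CTLA-4 and CD28, were not called at any size. Cd80 was at 7.69, 6.54, 7.75 and 8.71 FPKM in CT-26 tumors of 800 mm3 and at 10.6, 11.5, 13.7 and 9.04 FPKM in Colon 26 tumors, with overlapping CPM ranges and a log2 difference of 0.44 ± 0.13 SE (adjusted p = 0.018, edgeR). At 100 and 400 mm3 it was 0.22 ± 0.09 and 0.15 ± 0.23 SE (adjusted p = 0.07 and 0.62). Cd86 differed by 0.30 ± 0.20, 0.17 ± 0.40 and 0.25 ± 0.11 SE at the 3 sizes (adjusted p = 0.24, 0.76 and 0.086), and over all sizes it was at 1.62 to 6.77 FPKM in CT-26 and at 2.79 to 7.31 FPKM in Colon 26 tumors. Pdcd1lg2 stayed at or below 2.16 FPKM in every tumor, was at 0.186 to 2.16 FPKM in CT-26 and 0.046 to 0.774 FPKM in Colon 26 at 400 mm3, and was not called at any size (adjusted p = 0.24 to 0.77).

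Among the receptors, Pdcd1 was at 2.59, 7.38, 1.47 and 5.38 FPKM in CT-26 tumors of 400 mm3 and at 1.43, 0.647, 1.43 and 1.13 FPKM in Colon 26 tumors. All 4 CT-26 tumors were higher, tumor c only just, and the fold was 3.73 (log2 fold change -1.90 ± 0.48 SE, adjusted p = 0.011, edgeR). Lag3 did not overlap between the models either, at 2.48, 6.36, 1.51 and 4.32 FPKM in CT-26 and 1.20, 0.473, 1.35 and 1.24 FPKM in Colon 26 (3.54-fold, -1.82 ± 0.46 SE, adjusted p = 0.011). With any 1 library of the 8 left out, the log2 fold change ranged from -2.17 to -1.47 for Pdcd1 and from -2.07 to -1.41 for Lag3.

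At 800 mm3 neither was called. Pdcd1 was at 3.13, 3.51, 3.00 and 0.970 FPKM in CT-26 and 1.39, 1.47, 2.60 and 2.70 FPKM in Colon 26 (-0.45 ± 0.37 SE, adjusted p = 0.33, edgeR), and Lag3 at 2.55, 2.66, 2.16 and 0.981 FPKM and 1.15, 2.01, 1.56 and 2.10 FPKM (-0.35 ± 0.30 SE, adjusted p = 0.35). CT-26 tumor d was the lowest of all 8 for both. At 100 mm3 the differences were -0.65 ± 0.68 SE for Pdcd1 (adjusted p = 0.46) and -0.93 ± 0.67 SE for Lag3 (adjusted p = 0.28), with wide overlap.

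Ctla4 was called lower in Colon 26 tumors of 400 and 800 mm3 and was not called at 100 mm3 (-0.19 ± 0.42 SE, adjusted p = 0.73, edgeR). At 400 mm3 it was at 1.45, 2.14, 7.05 and 1.15 FPKM in CT-26 and at 0.897, 0.176, 0.715 and 0.882 FPKM in Colon 26, 4.75-fold apart (log2 fold change -2.25 ± 0.69 SE, adjusted p = 0.027). Without tumor c of CT-26, the highest of the 8, the difference was -1.29 (adjusted p = 0.063). At 800 mm3 it was at 2.03, 1.62, 2.31 and 0.937 FPKM against 0.474, 0.883, 0.445 and 0.692 FPKM, again with no overlap (2.87-fold, -1.52 ± 0.32 SE, adjusted p = 0.0025).

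Tigit passed the adjusted p alone at each size, lower in Colon 26 tumors, while its ranges overlapped in culture. At 800 mm3 it was at 10.6, 8.30, 11.2 and 9.30 FPKM in CT-26 and at 4.23, 6.30, 6.44 and 5.18 FPKM in Colon 26 (log2 fold change -0.90 ± 0.15 SE, adjusted p = 0.00074, edgeR). At 400 mm3 the values were 7.12, 8.29, 6.27 and 7.55 FPKM and 5.66, 3.46, 4.25 and 3.63 FPKM (-0.85 ± 0.17 SE, adjusted p = 0.0039), and at 100 mm3 the difference was -0.70 ± 0.21 SE (adjusted p = 0.024). None reached the minimum fold. Havcr2 differed by 0.35 ± 0.39, -0.20 ± 0.21 and -0.16 ± 0.19 SE at the 3 sizes (adjusted p = 0.49, 0.48 and 0.51), and in the tumors of 400 and 800 mm3 it lay between 3.75 and 6.80 FPKM in both models.

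A fit of all 24 tumors with size as a term, chosen after these comparisons were seen, called 3 of 10 members, where 14.6% of genes were called. They were Cd274 (log2 fold change -1.24 ± 0.31 SE, adjusted p = 0.0013, edgeR), Ctla4 (-1.29 ± 0.36 SE, adjusted p = 0.0032) and Lag3 (-1.01 ± 0.34 SE, adjusted p = 0.012). By the adjusted p alone 7 passed, beside 72.0% of genes, with Pvr (-0.91 ± 0.11 SE), Tigit (-0.78 ± 0.11 SE), Pdcd1 (-0.96 ± 0.36 SE) and Cd80 (0.30 ± 0.10 SE). Lag3 and Pdcd1 lie at the minimum fold and crossed it when 1 library was left out, Lag3 ranging from -1.16 to -0.80 and Pdcd1 reaching -1.18 without Colon 26 tumor b of 100 mm3. Ctla4 was at -0.98 without CT-26 tumor c of 400 mm3.

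**Figure D3:**
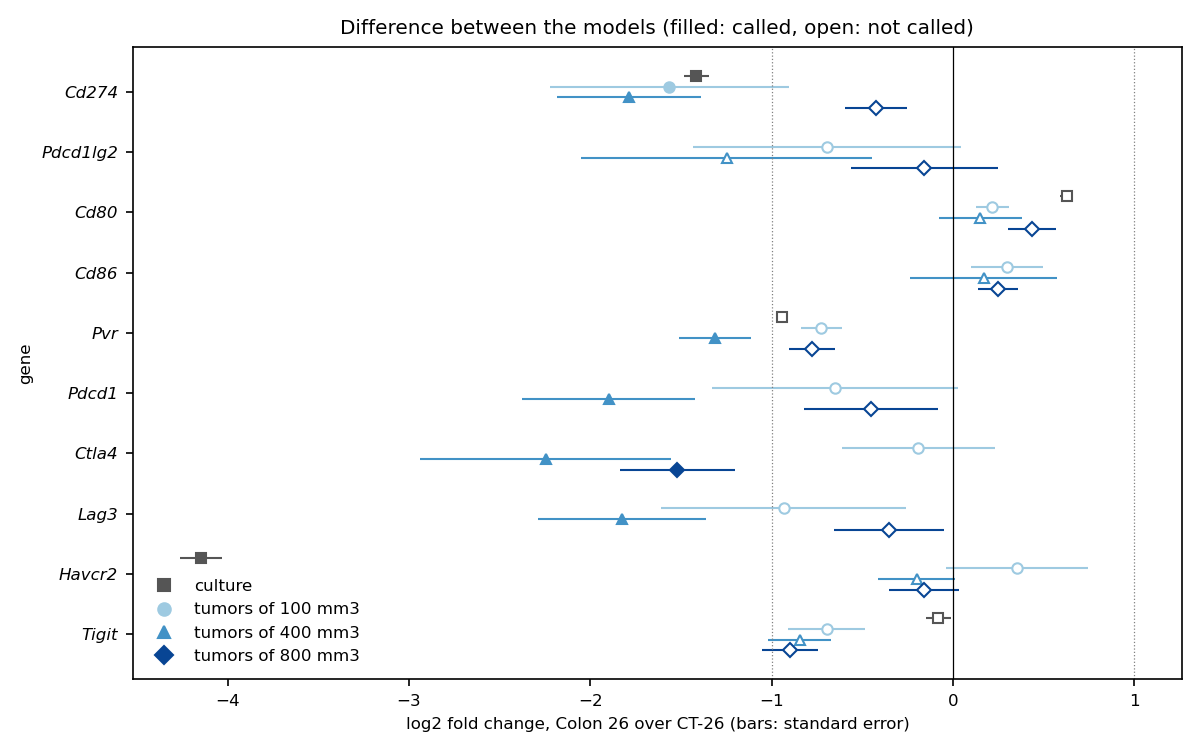
Log2 fold change of each member, Colon 26 over CT-26 (horizontal axis), with SE, in cultures (squares) and in tumors of 100 (circles), 400 (triangles) and 800 mm3 (diamonds). Filled symbols were called, and dotted lines mark the minimum fold. Havcr2 stands at -4.15 in culture and near 0 in tumors, and every symbol of Cd80 and Cd86 lies right of 0.

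Tumor size was compared within each model. No member was called at 400 or 800 mm3 against 100 mm3 in either model (0 of 10 in each of the 4 comparisons by edgeR, and 0 by DESeq2). Of all genes, DESeq2 called 150 and 39 at 400 and 800 mm3 in CT-26, and 42 and 308 in Colon 26. By edgeR 0% of all genes were called at either size in CT-26, and 0.0131% at 400 mm3 and 1.33% at 800 mm3 in Colon 26. At an unadjusted p under 0.05 there was 1 member at each size in CT-26 (Pvr), 1 at 400 mm3 in Colon 26 (Havcr2) and 3 at 800 mm3 (Ctla4, Havcr2 and Pvr). At that p there were 3356 of 15104 and 1610 of 15298 of all genes at 400 and 800 mm3 in CT-26, and 1929 of 15241 and 3187 of 15404 in Colon 26. Pvr rose by 0.44 ± 0.10 SE on the log2 scale from 100 to 800 mm3 in Colon 26 (adjusted p = 0.05), the only member that passed the adjusted p alone there, beside 6.67% of genes. In CT-26 its differences were 0.77 ± 0.20 SE at 400 mm3 (adjusted p = 0.11) and 0.50 ± 0.14 SE at 800 mm3 (adjusted p = 0.42).

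In Colon 26, Ctla4 and Havcr2 differed from 100 to 800 mm3 by -1.05 ± 0.39 SE (adjusted p = 0.17, edgeR) and -0.71 ± 0.24 SE (adjusted p = 0.14). In CT-26, Ctla4 differed by 1.13 ± 0.61 SE from 100 to 400 mm3 (adjusted p = 0.3). Without Colon 26 tumor a of 100 mm3, Ctla4 was called at -1.31 (adjusted p = 0.078). Cd274 in CT-26 differed by -0.89 ± 0.48 SE at 800 mm3 (adjusted p = 0.52), with tumors of 100 and 400 mm3 spread from 5.23 to 39.0 FPKM and those of 800 mm3 from 7.43 to 11.6 FPKM. Whether the model difference changes with size was tested as an interaction. No member was called by edgeR or DESeq2 (0 of 10 at both steps). Of all genes, DESeq2 called 33 between 100 and 400 mm3 and 114 between 100 and 800 mm3. By edgeR 0% and 0.0308% of genes were called at these steps. At an unadjusted p under 0.05 there were 2 members (Ctla4 and Pvr) and 1 (Ctla4), beside 1254 of 16077 and 2031 of 16238 of all genes. The calls at 400 mm3 therefore do not show a difference particular to that size.

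Other checkpoint and costimulatory genes were counted as a list of 40. In culture 3 were higher in Colon 26 and 6 lower of 18 tested, where 22.9% of all genes tested were called. Vsir (2.83), Icosl (2.43) and H2-T23 (2.29) were higher on the log2 scale, and Ceacam1 (-5.05), Siglecg (-4.23), Vtcn1 (-3.77), Tnfsf18 (-3.21) and Nectin2 (-2.74) were lower, all called by edgeR. Igsf11 was read in CT-26 cultures (2.42 ± 0.35 CPM, SD, n = 3) and had 0 counts in Colon 26 cultures. Ceacam1 encodes a ligand of TIM-3 and Nectin2 a further ligand of the receptor family of TIGIT.

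In tumors, 4, 12 and 6 of the 31 genes of the list that were tested at 100, 400 and 800 mm3 were lower in Colon 26, and 0, 1 and 0 were higher. Of all genes tested, 13.2%, 14.3% and 14.1% were called at these sizes. Ceacam1 was at 26.1 ± 4.69, 32.6 ± 3.78 and 46.2 ± 12.6 CPM in CT-26 and at 6.51 ± 1.22, 5.30 ± 1.22 and 4.56 ± 1.06 CPM in Colon 26 tumors (SD, n = 4), lower at each size. Nectin2 was lower at each size as well, by 1.25 to 1.52 on the log2 scale, and so was Klrg1, a receptor of mature NK and effector T cells (-1.92, -1.75 and -2.52). At 400 mm3 the lower genes also included Cd28, the activating counterpart of CTLA-4 (-1.59), Icos (-1.31), Btla (-1.39), Cd226 (-1.38), Cd96 (-1.45), Cd244 (-1.55), Klrc1 (-1.87), Tnfrsf9 (-1.52) and Cd27 (-1.69), and Nectin3 was higher (1.09). From culture to tumor 22 of 34 rose and 5 fell in CT-26, where 32.2% of all genes tested were called. In Colon 26, 25 of 33 rose and 1 fell, where 26.9% were called. Between tumor sizes 0 were called in either model by edgeR, beside at most 1.33% of all genes tested.

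The level of lymphocyte genes in the same tumors was set beside the receptors. Cytotoxic genes (Gzma, Gzmb, Prf1 and Nkg7) were lower in Colon 26 in 4 of 4 at every size, with median log2 fold changes of -2.67, -2.49 and -2.43. T cell markers were lower in 2, 6 and 0 of 7, NK markers in 3, 4 and 3 of 4, and regulatory T cell markers in 0 of 3 at every size. Of all genes tested, 13.2%, 14.3% and 14.1% were called at 100, 400 and 800 mm3. The mean T cell score ranged from 0.92 to 2.90, 0.70 to 2.63 and 0.34 to 1.94 log2 CPM in CT-26 tumors of 100, 400 and 800 mm3 and from -0.20 to 1.74, -0.71 to 0.76 and 0.42 to 1.55 in Colon 26 tumors.

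Each receptor was then divided by the mean of Cd3d, Cd3e and Cd3g in the same tumor, on the scale log2(FPKM + 0.1), and the models were compared by a two-sided exact permutation test, which with 4 against 4 cannot give a p under 0.029. Of 15 tests (5 receptors, 3 sizes) 0 passed an adjusted p of 0.1. Adjusted over the 15, a test at that smallest p passes only if several others reach it too. The count of 0 therefore does not show that the ratios are alike. At 400 mm3 the difference between the models was -0.09 for Pdcd1 (0.25 ± 0.15 in CT-26 and 0.16 ± 0.16 in Colon 26, SD, exact p = 0.43) and -0.10 for Lag3 (0.12 ± 0.07 and 0.02 ± 0.07, exact p = 0.11), where their levels alone differed by over 3-fold. Ctla4 at 800 mm3 (-1.23, exact p = 0.029, adjusted p = 0.21) and Havcr2 at 100 mm3 (1.21, exact p = 0.029, adjusted p = 0.21) had the smallest p. Cultures, where Cd3d, Cd3e and Cd3g were at most 3 counts, also held Tigit and, in CT-26, Havcr2 (5.71 to 6.28 FPKM). The ratios of Havcr2 and Tigit are therefore not levels per T cell. Divided instead by the leukocyte gene Ptprc, 5 of the 15 tests passed, with Pdcd1 (-1.49) and Lag3 (-1.50) at 400 mm3 among them (adjusted p = 0.086). Of 9 tests of Cd80, Cd86 and Pdcd1lg2 over the mean of the myeloid genes Csf1r, Adgre1 and Cd68, 0 passed (smallest exact p = 0.14). The same limit of adjustment holds for these 9. Cd80 (29.5 to 30.3 FPKM) and Cd68 (1272 to 1788 counts) were also read in CT-26 cultures, so the Cd80 ratio is not a level per myeloid cell.

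Across the 24 tumors, after the mean of each group was removed, members were related to 7 marker scores (70 relations, permutation within groups with 100000 resamples, adjusted over the 70). Lag3 and Pdcd1 followed the T cell score, with Pearson's r of 0.98 and 0.94 and Spearman's rho of 0.94 and 0.90 (p = 1e-05 in each case, the smallest the resamples can give, adjusted p = 0.00017). Without the 2 tumors farthest from the median score, r was 0.97 and 0.93. Cd274 followed the interferon genes (r = 0.90, rho = 0.87, permutation p = 3e-05 for each, adjusted p = 0.0003, r = 0.85 without 2 tumors). It also gave r of 0.81 with the cytotoxic and 0.77 with the T cell score (permutation, adjusted p = 0.0013 and 0.0016). The 2 receptors also followed the interferon genes, Pdcd1 with r = 0.90 and Lag3 with r = 0.89. For Tigit and the T cell score r was 0.69 and rho 0.62 (permutation p = 0.002 and 0.003, adjusted p = 0.0046, r = 0.66 without 2 tumors). The largest r of Tigit was with the NK score (0.75, rho = 0.75, permutation, adjusted p = 0.0037). For Ctla4 r was 0.43 with the T cell score (permutation p = 0.08, adjusted p = 0.12) and fell to 0.22 without 2 tumors. With the regulatory T cell score, which includes Il2ra, it was 0.79 (rho = 0.89, adjusted p = 0.00023, r = 0.75 without 2 tumors). With the cytotoxic score r of Ctla4 was 0.73 (rho = 0.78, permutation, adjusted p = 0.0007, r = 0.73 without 2 tumors). In CT-26 tumor c of 400 mm3, highest of its group in Ctla4, the regulatory T cell marker Foxp3 was lowest of its group, at 0.189 FPKM. Cd86 had its largest r with dendritic cell markers (0.79, rho = 0.75, adjusted p = 0.0015, r = 0.65 without 2 tumors). The largest r of Havcr2 was with the cytotoxic score (0.73, rho = 0.68, permutation, adjusted p = 0.0019), and with the T cell score it was 0.62 (adjusted p = 0.014). Pdcd1lg2 had its largest r with the interferon genes (0.76, rho = 0.74, permutation, adjusted p = 0.0015). Pvr and Cd80 gave r of -0.31 and -0.19 with the T cell score (adjusted p = 0.31 and 0.47).

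**Figure D4:**
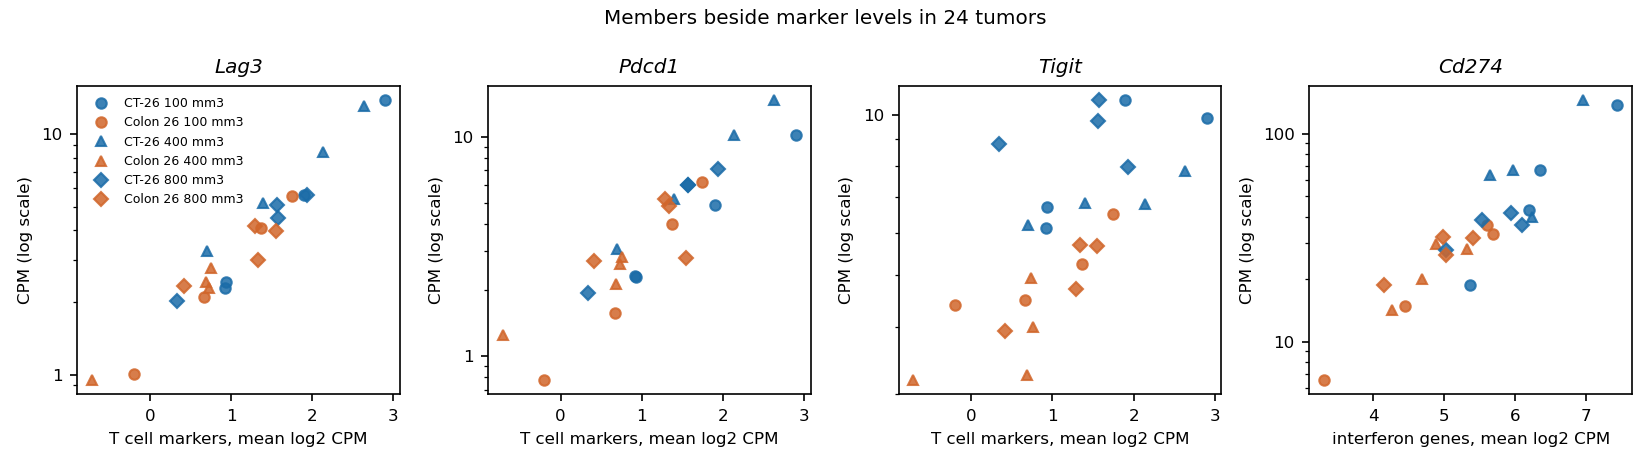
CPM of Lag3, Pdcd1, Tigit and Cd274 (vertical axis, logarithmic) in the 24 tumors against the mean log2 CPM of 7 T cell markers (first 3 panels) or 9 interferon genes (last panel). Blue is CT-26 and orange Colon 26, with circles, triangles and diamonds for 100, 400 and 800 mm3. Lag3 and Pdcd1 rise with the T cell markers with the least scatter (r = 0.98 and 0.94 with group means removed), and Tigit with more (r = 0.69).

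Among 13509 genes with a mean of at least 1 CPM, those most like each member over the 24 tumors, by Pearson's r with group means removed, are given as a description. Lag3 was nearest to Cd3g (0.983), Cd3d (0.978) and Cd3e (0.96), the chains of the T cell receptor complex, and Pdcd1 to Cd3g (0.968), Klrc1 (0.959) and Cd8b1 (0.954). Cd274 was nearest to Sp140 (0.952), Gbp9 (0.935) and Irf1 (0.933), the last of these an interferon induced transcription factor. Pdcd1lg2 was nearest to Tmem189 (0.906), its neighbor on the chromosome Cd274 (0.865) and Hcar2 (0.86), and Ctla4 to Scin (0.924), Il2ra (0.911) and Icos (0.858).

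For the other members the nearest genes were less close or of mixed kinds. Cd86 was nearest to Pilrb2 (0.876), Cd1d1 (0.856) and Mgat4a (0.854), Cd80 to Ak1 (0.851), Nr2c2ap (0.813) and Tmem88 (0.808), and Pvr to Esm1 (0.934), Stam (0.902) and Far2 (0.894). Havcr2 was nearest to 9130208D14Rik (0.904), Gm8995 (0.894) and Dtx3l (0.858), and Tigit to Max (0.816), the class I gene H2-K1 (0.811) and Ogfr (0.805). No T cell marker stood among the 3 nearest of Tigit or Havcr2.

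Among the members within the tumors, Pvr had the highest mean in all 6 groups, at means of 32.7, 53.8 and 45.4 FPKM in CT-26 and 20.5, 22.8 and 27.7 FPKM in Colon 26 tumors. In CT-26 tumors of 100 and 400 mm3 Cd274 came next, at 18.2 ± 14.1 and 21.04 ± 12.3 FPKM (SD, n = 4), with ranges that overlapped that of Pvr. At 800 mm3 Tigit (9.86 ± 1.31 FPKM) and Cd274 (9.72 ± 1.74 FPKM) followed Pvr and overlapped each other. In Colon 26 tumors of every size Cd80 came next, at 10.6 ± 0.87, 9.10 ± 3.38 and 11.2 ± 1.93 FPKM. Cd274, Cd80, Tigit, Havcr2 and Cd86 formed a middle set in which most neighbors in the order overlapped in range. Pdcd1, Lag3, Ctla4 and Pdcd1lg2 were the lowest 4 in 5 of the 6 groups, and in CT-26 tumors of 400 mm3 Cd86 (4.04 ± 2.20 FPKM) lay between Pdcd1 (4.21 ± 2.68 FPKM) and Lag3 (3.67 ± 2.14 FPKM).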

How the data were processed

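Poly-A RNA-seq of 30 libraries was used. Per gene, the authors obtained counts in Array Studio from the annotation of Ensembl release 78. The deposited values are estimated counts, of which 22.6% of the non-zero ones are not whole, and deposited FPKM. The aligner, the genome build and the handling of strand are not given in the sources used here. The submitters' processing notes name DESeq2 1.24.0. Groups were taken from the labels, and 0 columns were left unused.

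The members, gene lists and tests were chosen with earlier results of these data known. All 10 members are named in every comparison, and genes of the other lists where called. Estimated counts, assumed to be whole when the tests were designed, were rounded and tested in edgeR 4.0.16 (R 4.3.3, limma 3.58.1) on the libraries compared, with TMM factors and its low-count filter, and p-values were adjusted over all genes tested (Benjamini-Hochberg). SE were derived from the F statistic. The fits were checked on simulated counts. CPM used factors over all libraries. Alternatives were DESeq2 1.42.0, RLE factors, library size, no filter, 1 fit of all libraries, limma on log2(FPKM + 1), no minimum fold and leaving out each library. Permutations, Dixon's test and r used Python 3.11.15 (numpy 2.4.6, pandas 2.3.3, scipy 1.17.1), and log2 CPM a prior count of 2. Gene positions are from GENCODE, and 97.7% of the gene IDs were matched to a symbol. Intervals cover counting error only, as reads carry no molecular identifiers. Data of other assays were not used here.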

Additional observations from a re-analysis of the deposited data

Results flagged for a closer look

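In 4 of the 60 combinations of member and tumor group 1 tumor lay apart from the other 3 by Dixon's test, which chance alone gives in about 1 of 20 groups. Ctla4 was at 7.05 FPKM in CT-26 tumor c of 400 mm3, against 1.15 to 2.14 FPKM in the others. Havcr2 was at 11.8 FPKM in CT-26 tumor b of 100 mm3, against 3.94 to 4.27 FPKM. Lag3 was at 0.473 FPKM in Colon 26 tumor b of 400 mm3, against 1.20 to 1.35 FPKM. Cd86 was at 4.91 FPKM in Colon 26 tumor b of 800 mm3, against 5.80 to 5.95 FPKM.

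For 2 of 10 members the change from culture to tumor of 100 mm3 was called as different between the models (interaction, edgeR). Of all genes tested, 17.6% were called in this interaction. For Havcr2 the term was 4.50 on the log2 scale (adjusted p = 2.6e-05), with 332 to 476 counts in CT-26 cultures and 28 to 42 in Colon 26 cultures. For Ctla4 it was 3.95 (adjusted p = 0.086), on 0 to 3 counts in every culture.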

How the results depend on the processing

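With no minimum fold, 4 members passed in culture and 4, 6 and 6 at 100, 400 and 800 mm3. Of all genes tested, 82.6%, 56.5%, 52.2% and 59.4% passed in these. From 100 to 800 mm3 in Colon 26, 1 passed, beside 6.67% of genes. In the interaction of model with culture or tumor 4 passed, beside 51.0%, and over the 24 tumors 7, beside 72.0%. With limma on log2(FPKM + 1), 0 passed at 100 mm3, 0 at 800 mm3, 1 in that interaction and 1 over the 24 tumors. In that interaction Ctla4 was then at -0.0248 (limma, adjusted p = 0.95), a reversed sign whose cause was not tested. Pdcd1lg2 from culture to tumor in Colon 26 was at 0.79 and no longer called. With 1 library left out at a time the counts ranged from 0 to 1 at 100 mm3, from 0 to 1 from 100 to 800 mm3 in Colon 26, and from 1 to 2 in that interaction. With Ptprc as the denominator 5 receptor ratios passed in place of 0. DESeq2, RLE factors and no filter each left all 135 tests of a member on their side of the threshold, and library size alone moved Lag3 over the 24 tumors to -0.98. Depth limits the members that cultures held at 0 to 3 counts, where folds are bounds or ratios of few counts. No paired analysis was possible because the labels carry no replicate numbers.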
